A study of Mus musculus with 753 samples.

Results

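Myc and 43 genes of ribosome biogenesis were examined in single epidermal cells of mouse skin wounds. Myc is a transcription factor that drives cell growth, and the genes that build ribosomes are among its best known targets. A ribosome is made in the nucleolus: RNA polymerase I transcribes the rRNA precursor, small nucleolar ribonucleoproteins (snoRNPs) modify it, and separate sets of assembly factors carry the small (40S) and the large (60S) subunit to export. In skin, Myc is known for driving epidermal stem cells out of their niche and into proliferation and differentiation. The members were given as a list of 44 genes, and all 44 were among the 25001 genes of the filtered table, which holds 684 cells of 753 samples (6 of them blank wells).

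The cells came from Gata6EGFPCreERT2 mice carrying Rosa26-fl/STOP/fl-tdTomato, 8 to 12 weeks old, that all received topical 4-hydroxytamoxifen. The reporter then marks cells that expressed Gata6 at that time, in upper hair follicle and sebaceous duct, and their progeny. Gata6lin+ (lin+) cells were sorted as tdTomato-positive and lin- cells as tdTomato-negative, from wounds at days 6, 9 and 11 after a 6 mm wound and from unwounded skin (day 0) of mice used at days 9 and 11. Which late mouse gave which day 0 cells is not stated in the labels, so day 0 sets were fitted as separate mice. Per the methods, samples were mixed with epidermal cells of CAGGS eGFP mice, which were then removed by sorting on GFP, and cells with the leukocyte protein CD45 were gated out. The lin- cells are thus unlabelled epidermal cells of the same mice. They can include cells in which labelling failed and cells other than keratinocytes. Cells fall into 14 sets of 1 lineage, 1 day and 1 batch. Lin+ cells numbered 47 and 46 at day 0 (batches 1 and 2), 93 at day 6 (batch 2), 42 and 44 at day 9, then 32 and 47 at day 11, and lin- cells numbered 47 and 48, 93, 28 and 44, and 26 and 47 at the same times. A set comes from 1 mouse at days 9 and 11 and from several at day 6, so batch is also replicate, and p values measure the spread between so few sets. Batch 1 holds read counts and batch 2 RPKM (reads scaled by gene length and depth), so that levels in batch 2 are per length and those in batch 1 are not. Tests use differences inside each batch, and levels of the batches stand side by side only as values on different scales.

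Median depth was 1806780 to 5967311 reads per cell by set, and 10 cells had under 100000 reads. The number of genes detected moved with time: its median per set was 1776 to 2308 at day 0, 2089 and 2143 at day 6, and 1943.5 to 3228 in late wounds (days 9 and 11). In batch 1, rRNA genes took a median of 11.8% to 14.8% of reads in wounds and 22.8% and 28.6% at day 0. Keratinocyte markers were high in every set (summed 9124 to 43516 CPM, that is, values scaled to one fixed total per cell). Of 8 immune markers 2 could be tested and none passed, and their summed level was 0.06 to 170.6 CPM in late lin+ sets against 0.33 to 15.5 CPM at day 0, and 0.09 to 162.9 CPM in late lin- sets against 3.34 to 12.2 CPM at day 0. Most of the high sums was the myeloid gene Lyz2, at 93.5 to 152.9 CPM in the 4 late sets of batch 2 and at 0.13 CPM or less in those of batch 1, while the pan-leukocyte gene Ptprc was at 0.88 CPM or less in every set. No fibroblast or endothelium marker reached 10 CPM in 2 sets, as a test needed, with sums of at most 22.9 and 111.5 CPM, the second in 1 late lin- set of batch 1. Dct, a melanocyte gene, stood at 486, 2309.9 and 1896 CPM in the lin- wound sets of batch 2 at days 6, 9 and 11 and at 9.9 CPM or less in the other 11 sets. Melanocyte markers summed to at most 2914.6 CPM in late lin- sets. All 4 tested were positive in late lin- wounds against day 0 (median log2 fold change 4.18), and 0 passed. The part of these features in the results below was not tested, except where values with and without them are given.

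Of the 38 members with a promoter in the RefSeq table (GRCm38.p6, 250 bases before to 50 after the start), 8 (21.1%) held the E-box CACGTG, which is its own reverse complement and is a sequence that Myc with its partner Max can bind. Of all 27025 promoters of that table, 2187 (8.09%) held it. Before the start alone it was held by 3 of the 38 members and by 1854 of the 27025, shares that lie much closer together. The larger share of the members thus came mostly from the 50 bases after the start. The match is a description of the letters and no evidence of binding. The 8 stretches are shown because they mark which members carry the E-box near the start, with the E-box in capitals.
Imp4 (chr1:34439696-34439725, plus strand): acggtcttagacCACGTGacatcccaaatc
Surf2 (chr2:26916376-26916405, plus strand): ggcgctctgtctCACGTGgtggctgcggcg
Nop2 (chr6:125131811-125131840, plus strand): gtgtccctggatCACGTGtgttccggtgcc
Ltv1 (chr10:13193092-13193121, minus strand): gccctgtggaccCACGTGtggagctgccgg
Utp20 (chr10:88826765-88826789, minus strand): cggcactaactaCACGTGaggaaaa
Pes1 (chr11:3963965-3963994, plus strand): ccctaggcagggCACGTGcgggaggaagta
Tsr1 (chr11:74898092-74898121, plus strand): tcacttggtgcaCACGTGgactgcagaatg
Wdr43 (chr17:71616220-71616249, plus strand): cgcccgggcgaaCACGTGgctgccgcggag
The E-box began 121, 60 and 20 bases before the start in Imp4, Nop2 and Surf2, and 2 to 37 bases after it in the other 5, counted from the start on which the promoter table is centred, which is not in every case the first base of the gene as annotated. Among the 8 are factors of both subunits: Imp4, Utp20 and Wdr43 belong to the small subunit processome, Ltv1 and Tsr1 act late on the 40S subunit, and Nop2 and Pes1 act on the 60S subunit.

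The members were first summarised per cell. The module score of a cell was the mean, over the 43 members other than Myc, of ln(1 + 10000 × the gene's share of the cell's total). In lin+ cells the mean score was 0.141 and 0.206 at day 0 (batches 1 and 2), 0.230 at day 6, 0.287 and 0.298 at day 9, then 0.352 and 0.360 at day 11. All 4 late lin+ sets were above the day 0 set of their batch, and day 11 was above day 9 in both batches, by 0.065 and 0.062. In lin- cells it was 0.161 and 0.208 at day 0, 0.246 on day 6, 0.382 and 0.390 at day 9, then 0.297 and 0.384 at day 11. All 4 late lin- sets were above day 0 as well, but day 11 lay below day 9, by 0.085 in batch 1 and 0.006 in batch 2. The spread over cells of a set (SD 0.092 to 0.211) was as wide as these differences, and the ranges of cells overlapped in every pair of sets.

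Late wounds exceeded day 0 by 0.178 in batch 1 and 0.123 in batch 2 for lin+ cells, and by 0.178 and 0.179 for lin- cells. In the lin- sets of batch 1 Dct was at 5.3 CPM or less and Lyz2 at 0 CPM, while endothelium markers summed to 111.5 CPM in 1 late set. The part of other cell types in the score was not tested. Day 6 exceeded day 0 of the same batch by only 0.025 (lin+) and 0.039 (lin-), and it shares these day 0 cells with the late wound comparison of batch 2. A lin+ cell had reads from a median of 5 and 8.5 members at day 0, 10 on day 6, 13 and 12.5 at day 9, then 14 and 18 at day 11. A lin- cell had reads from 7 and 8 members at day 0, 10 on day 6, 15.5 and 16 at day 9, then 9.5 and 15 at day 11.

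**Figure D1:**
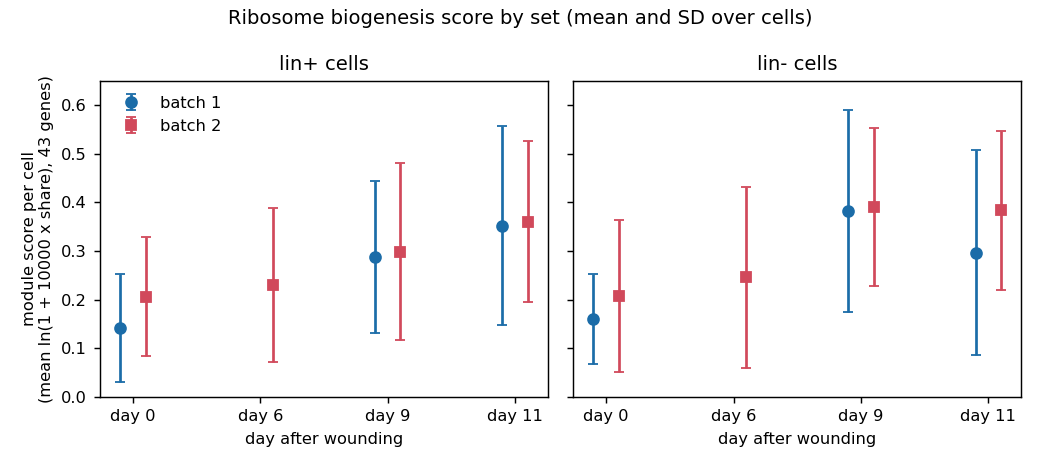
The plot shows the mean module score per cell (vertical axis, mean of ln(1 + 10000 × share) over 43 genes) by day after wounding, for lin+ cells (left) and lin- cells (right). Circles are batch 1, squares batch 2 and bars the SD over cells. Late wound sets sit at 0.287 to 0.390 and day 0 sets at 0.141 to 0.208.

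The rise in score was set beside that of the other genes, since more genes were detected per cell in late wounds. In lin+ cells the score in late wounds was 2.26 times (batch 1) and 1.60 times (batch 2) its day 0 value, against 1.60 and 1.35 times for the same mean over all other tested genes. In lin- cells the ratios were 2.11 and 1.86, against 1.47 and 1.52. Within a set, the score correlated with the number of genes detected at a Spearman rho of 0.373 to 0.790. Among cells with 2000 to 3500 genes detected, the late wound minus day 0 difference was 0.095 in lin+ cells and 0.109 in lin- cells, against 0.151 and 0.179 over all cells (means of the 2 batches). Batch 1 gave 0.142 for lin+ and also for lin- cells, while batch 2 gave less, with 0.049 (lin+) and 0.076 (lin-). Thinning every cell to 500000 reads, which 662 cells reach, gave 0.164 and 0.192. It used reads recovered from the RPKM in batch 2, so the unit changed there as well as the depth. Among cells with 2000 to 3500 genes the score of late wounds thus stood above day 0, with a smaller difference. In that window it was no longer above day 6 in lin+ cells (late wounds minus day 6 −0.037, against 0.099 over all cells). The window narrows the range of gene numbers but does not match them between sets, so the part of gene number in the remaining difference was not tested. The module score also correlated with a score over 18 proliferation genes (rho 0.198 to 0.557 in the 14 sets).

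The authors deposited an identity for each cell, by likeness to compartments of resting skin: basal interfollicular epidermis (IFE-B, 373 cells), outer bulge (OB, 121), upper hair follicle (uHF-I, 115, with few uHF-II and uHF-III) and others. In late wounds the score was highest in IFE-B cells of both lineages. Lin+ IFE-B cells scored 0.354 ± 0.173 (SD, 47 cells) in batch 1 and 0.443 ± 0.163 (41 cells) in batch 2 in late wounds, against 0.160 ± 0.134 and 0.244 ± 0.127 at day 0. Lin- IFE-B cells scored 0.377 ± 0.223 and 0.464 ± 0.146 in late wounds, against 0.156 ± 0.091 and 0.242 ± 0.170 at day 0. Within IFE-B the mean difference over both batches was 0.200 in lin+ and 0.219 in lin- cells, larger than over all cells. Lin+ uHF-I cells moved less, with 0.202 and 0.234 in late wounds against 0.128 and 0.186 at day 0. Lin+ uHF-III cells, seen mostly in batch 2 wounds, scored 0.176 (15 cells). Lin- OB cells of batch 2 scored 0.137 at day 0, 0.197 at day 6 and 0.298 in late wounds. The number of genes detected differed the same way (medians 3044 and 3790 in late lin+ IFE-B cells, 2044 and 2651.5 in late lin+ uHF-I cells).

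**Figure D2:**
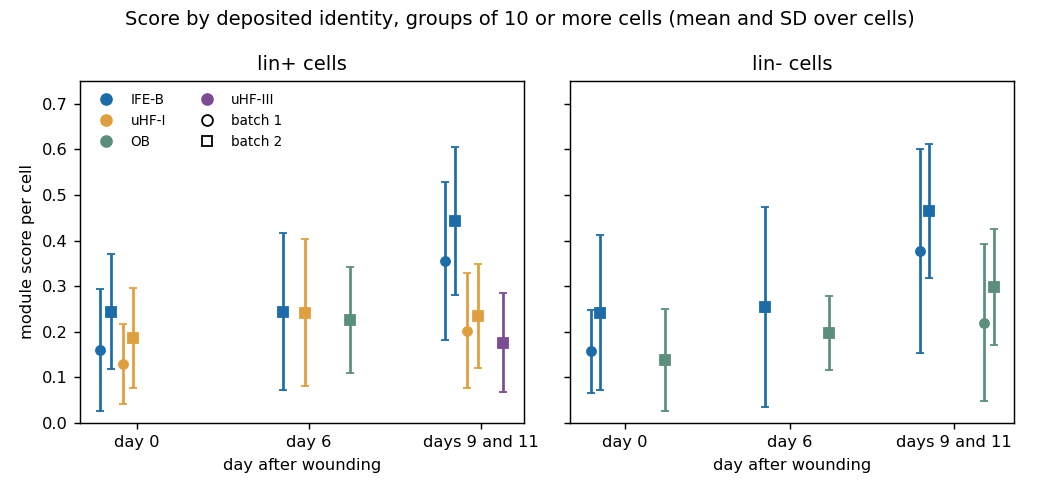
The plot shows the module score by deposited identity and day for groups of at least 10 cells, lin+ cells left and lin- cells right. Points are means, circles batch 1 and squares batch 2, and bars the SD over cells. Late IFE-B cells have the highest means, 0.354 to 0.464.

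Between the lineages the score was lower in lin+ cells in 6 of 7 pairs of sets. It was lower in lin+ than in lin- cells by 0.019 and 0.002 at day 0, by 0.016 at day 6 and by 0.095 and 0.092 at day 9. At day 11 it was 0.056 higher in lin+ cells in batch 1 and 0.024 lower in batch 2. Lineages also differ in makeup: IFE-B cells were 38.6% to 69.0% of late lin+ sets and 38.6% to 75.0% of late lin- sets, and OB cells 2.38% to 8.51% against 17.9% to 42.6%. The cells had been sorted by integrin alpha 6 level, which can set such shares.

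Myc itself (chr15:61985341-61990361 in GRCm38.p6) followed another pattern. The following set levels are means of CPM over the cells of a set, scaled between the sets of a batch. Lin+ cells had Myc at 80 and 550 CPM at day 0 (batches 1 and 2), 261 CPM at day 6, 540 and 226 CPM at day 9, then 1070.2 and 325 CPM at day 11. The batches thus moved in opposite directions, with late sets above day 0 in batch 1 and below it in batch 2. Lin- cells had 354 and 443 CPM at day 0, 228 CPM at day 6, 444 and 144 CPM at day 9, then 415 and 93 CPM at day 11. Here too batch 1 lay slightly above its day 0 set and batch 2 below it. A single cell gave 7.69% to 45.1% of a set's Myc.

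Late wounds against day 0 gave a log2 fold change of Myc of 1.11 ± 0.79 (SE; adjusted p = 0.656) in lin+ cells and −0.83 ± 0.79 (adjusted p = 0.689) in lin- cells. All tests across genes were limma fits on log2 of the set mean CPM plus 1 over 10619 genes, with Benjamini-Hochberg adjusted p values and a threshold of 0.05. The lin+ value rested on the day 0 sets: it was −1.11 (adjusted p = 0.402) without the batch 1 day 0 mouse set and 3.34 (adjusted p = 0.0068) without the batch 2 one. Over 17 alternatives its adjusted p was 0.0068 to 1.

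The share of cells with Myc gave a steadier order. To leave out traces of a few reads, a cell was counted where Myc reached 10 CPM. The share was 10.6% (95% exact interval 3.55 to 23.1%) and 47.8% (32.9 to 63.1%) of lin+ cells at day 0, 38.7% on day 6, 52.4% and 61.4% at day 9, then 68.8% (50.0 to 83.9%) and 68.1% (52.9 to 80.9%) at day 11. It was 23.4% and 27.1% of lin- cells at day 0, 44.1% on day 6, 50.0% and 40.9% at day 9, then 26.9% (11.6 to 47.8%) and 29.8% (17.3 to 44.9%) at day 11. At day 11 the intervals of the 2 lineages did not overlap in either batch, and at the other times they did. These intervals cover counting error over cells only. The wound share of lin+ minus lin- cells averaged 19.5 percentage points (SD 21.0) over the 5 mouse sets and was positive in 4 of 5 (exact sign-flip permutation test over mouse sets, two-sided p = 0.188, where the smallest possible is 0.0625). The fitted level was 0.86 ± 0.35 higher on the log2 scale in lin+ than in lin- wound cells, with a higher mean in 5 of 5 mouse sets, but it did not pass the test (limma p = 0.034, adjusted p = 0.627). At day 0 the log2 fold change was −0.91 ± 0.56 (adjusted p = 0.476), and the difference between the lineages in the change from day 0 to late wounds was 1.94 ± 0.70 (p = 0.021, adjusted p = 0.453).

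**Figure D3:**
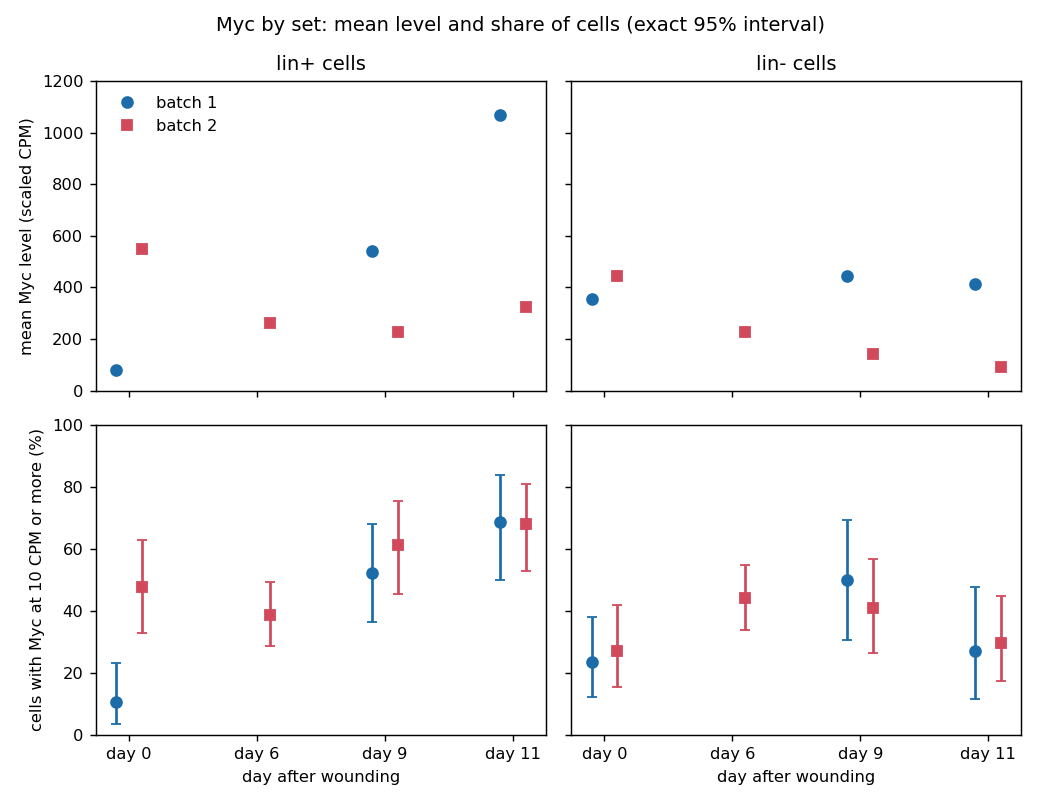
The upper plots show the mean Myc level (CPM, scaled between sets of a batch) and the lower plots the percentage of cells with Myc at 10 CPM or more, by day after wounding, for lin+ cells (left) and lin- cells (right). Circles are batch 1, squares batch 2 and bars exact 95% intervals. At day 11 the share is 68.8% and 68.1% in lin+ cells, against 26.9% and 29.8% in lin- cells.

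The same contrast held among IFE-B cells by their values. In late wounds Myc reached 10 CPM in 68.1% and 78.0% of lin+ IFE-B cells (batches 1 and 2), against 41.7% and 40.5% of lin- IFE-B cells. At day 0 it did so in 8.70% and 47.6% of lin+ IFE-B cells and in 30.6% and 29.0% of lin- IFE-B cells. Late lin+ uHF-I cells reached it in 14.3% and 59.1%, so that the batches differed there.

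Single cells were then used to relate Myc to the module score, which leaves Myc out. Spearman's rho between the Myc level and the score was above 0 in 14 of 14 sets, between 0.083 (lin- day 0, batch 1) and 0.594 (lin- day 11, batch 1), with a mean of 0.279. Its median over the sets was 0.236, while the same median for a member against the mean of the others was typically 0.276. Of the 43 members, 22 were likewise above 0 in all 14 sets. No gene outside the list was set beside Myc here. Cells with Myc at 10 CPM or more also had more genes detected, with set medians of 2052 to 4063, against 1290 to 3063.5 in the cells below 10 CPM. Given the number of genes detected, the partial rho was −0.043 to 0.319, above 0 in 12 of 14 sets, with a mean of 0.135. After thinning to 500000 reads the plain rho was −0.032 to 0.604. The mean score of cells at 10 CPM or more exceeded that of the cells below most in batch 1 at day 11, in lin- cells (0.505 against 0.220, 7 cells against 19) and then in lin+ cells (0.412 against 0.220), followed by lin- cells on day 6 (0.351 against 0.164). The smallest difference was in lin- cells at day 0 of batch 1 (0.160 against 0.161). Within IFE-B cells alone rho was −0.173 to 0.643 and positive in 12 of 14 sets. These correlations are over cells that share a library preparation and depth, and are descriptions.

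**Figure D4:**
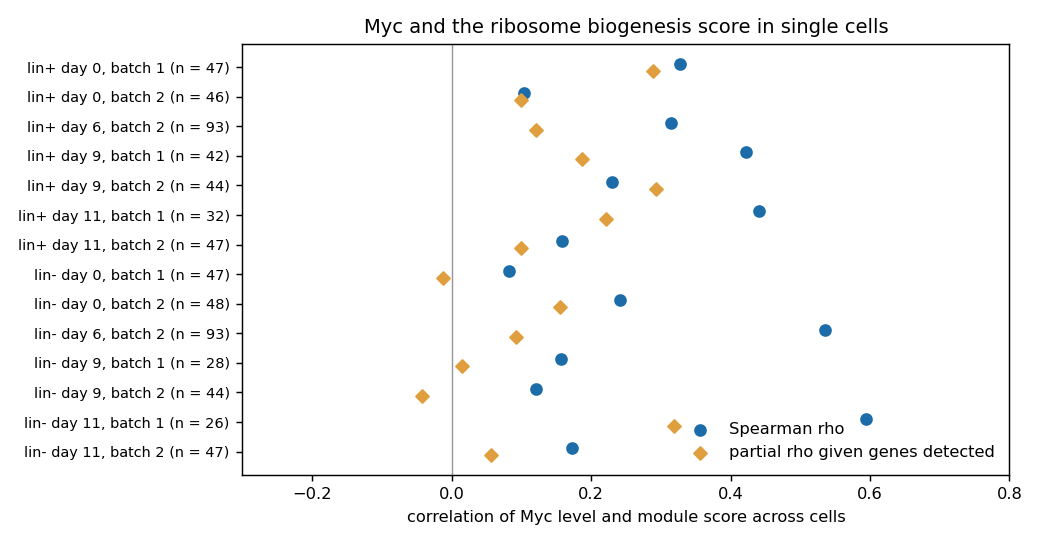
For each of the 14 sets the plot gives the correlation across cells of the Myc level with the module score (horizontal axis), as Spearman's rho (circles) and as the partial rho given the number of genes detected (diamonds). Circles range from 0.083 to 0.594 and diamonds from −0.043 to 0.319.

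Across the 14 sets, with the mean of each batch taken off, the genes whose level was most like that of Myc were Bhlhe40 (Pearson r = 0.905), Nfkbiz (0.874), Cpsf3 (0.868), Tsen15 (0.862) and Ppif (0.851). None is a member. The members nearest to Myc, Pwp1 and Rrs1, had r = 0.60 and ranks 298 and 299 of 10618 genes.

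Each member was also related to the others in single cells. Of 43, 22 correlated positively with the mean of the other members in all 14 sets, and the median rho of a member over the sets ran from 0.022 to 0.471, with a median of 0.276. No gene outside the list was set against this mean. The score also followed the number of genes detected, so these values do not set the members apart from other genes. Ncl, which encodes nucleolin, an abundant RNA-binding protein of the nucleolus, stood highest (0.47), followed by Gnl3 (nucleostemin, a nucleolar GTPase, 0.45), the box C/D snoRNP proteins Nop58 (0.45), Nop56 (0.41) and Fbl (0.40), and Pa2g4 (0.39). Polr1b, the second largest subunit of RNA polymerase I, stood lowest (0.02). It also differed between the batches, with reads in 453 of 462 second-batch cells (409 of them with 1 to 50 reads) and in 28 of 222 first-batch cells. At 10 CPM or more the shares were 9.96% and 7.66%. Dkc1 differed in the same way to a lesser degree (61.5% of second-batch and 23.4% of first-batch cells with reads), and for the other 41 members of the score the share of second-batch cells with reads was 0.371 to 1.76 times that of first-batch cells. What put these low reads there was not tested, and leaving both genes out of the score left the late wound minus day 0 difference at 0.151 in lin+ and 0.182 in lin- cells.

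Detection set the limits for single genes. The median member had reads in 24.0% of second-batch and 19.4% of first-batch cells. Apart from Polr1b and Dkc1, the most often detected were Ncl (76.0% and 74.8%), Npm1 (69.5% and 73.9%), Nop10 (56.1% and 57.7%) and Nhp2 (49.8% and 51.4%), and Myc had reads in 51.5% and 41.4%. Scaled per length, the members with the highest median level over the second-batch sets were Nop10 (466 TPM, which is CPM corrected for gene length), Nhp2 (383 TPM) and Myc (232 TPM), and the same 3 led in the first batch (Nhp2 617, Myc 285 and Nop10 277 TPM). In 142 of the 612 values of a member in a set that were above 0 (23.2%), a single cell gave more than 50% of the value, as counted over the 44 members and 14 sets.

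Member by member, 43 of the 44 could be tested between sets (Npm3, at 16 CPM or less in every set, could not). In lin+ cells of late wounds against day 0, 0 of 43 members passed the limma test, where 10 of 10619 genes did (0.0942%). Of the members 7 had an unadjusted p under 0.05, where 1071 of the 10619 genes did, and edgeR on summed reads called 0 members. The log2 fold changes ran from −1.90 to 4.23 with 31 of 43 above 0 and a median of 0.39, beside 55.7% above 0 and a median of 0.15 over all genes tested. In lin- cells 1 member, Surf2, rose, where 20 genes passed in either direction (0.188%). There 30 of 43 were above 0, with a median of 0.58, beside 53.4% and 0.11 over all genes. An unadjusted p under 0.05 was reached by 8 members and by 1363 of the 10619 genes. All 4 late sets lay above the day 0 set of their batch for 11 members in lin+ and 15 in lin- cells, beside 17.7% and 15.8% of all genes tested, and all 4 lay below it for 5 and 6, beside 14.3% and 15.1%. The 2 late sets of a batch share 1 day 0 set in these counts.

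**Figure D5:**
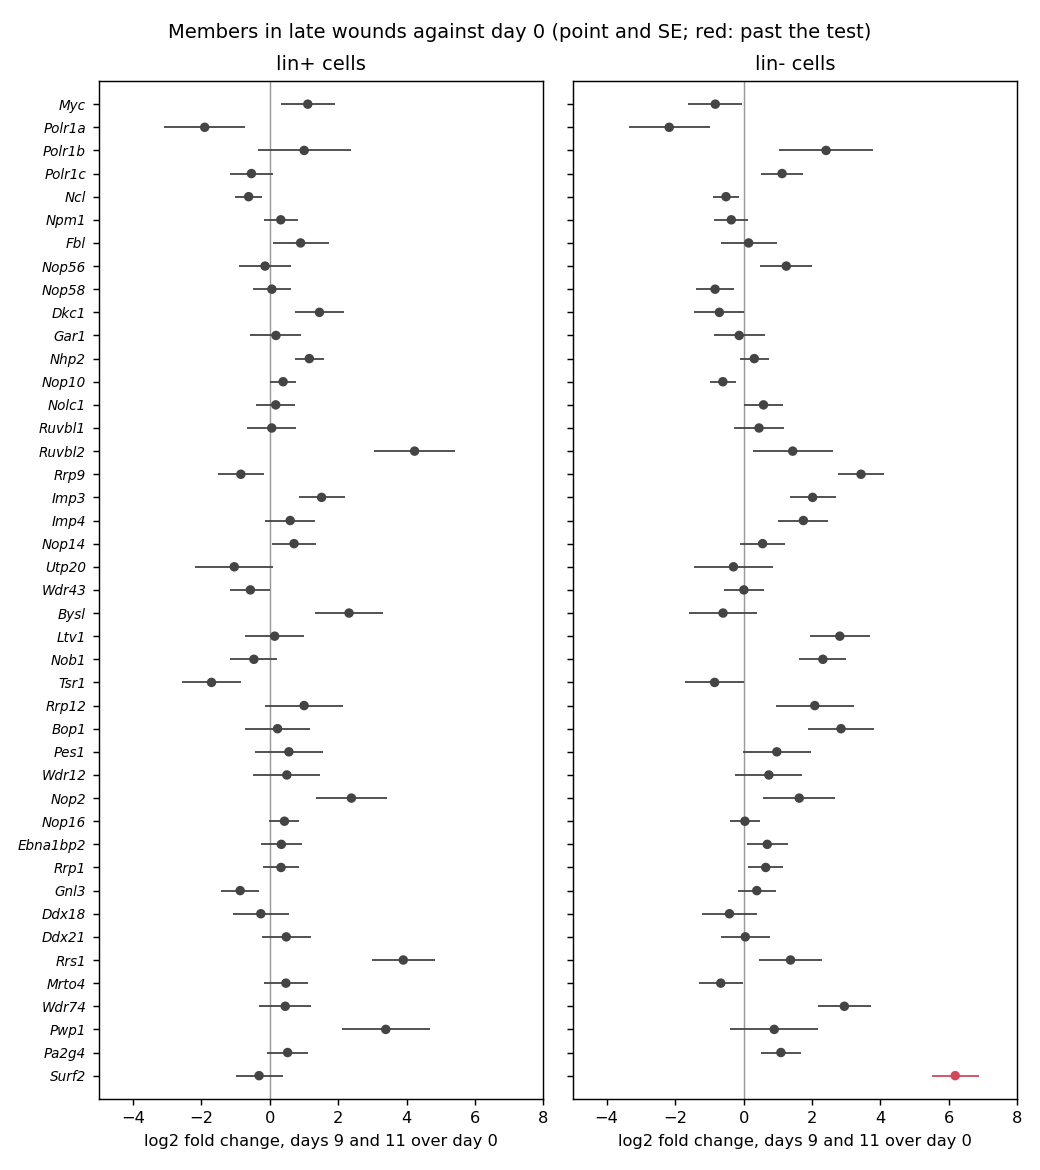
The plot gives the log2 fold change of late wounds (days 9 and 11) over day 0 for the 43 tested members, in lin+ cells (left) and lin- cells (right), ordered by role from Myc and RNA polymerase I at the top. Points are fitted values, bars their SE, and red marks a pass of the test. Surf2 in lin- cells is the single red point, at 6.19.

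The genes of RNA polymerase I did not move together. Polr1a, the largest subunit, had log2 fold changes of −1.90 in lin+ and −2.17 in lin- cells, and Polr1b, at 0.2 to 45.3 CPM by set, had 1.00 and 2.41. Polr1c, shared with RNA polymerase III, had −0.54 and 1.12. None passed the test.

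Nucleolin and nucleophosmin, abundant nucleolar proteins, were read in most cells. Ncl had 311.7 and 152 CPM in lin+ cells at day 0, 155 CPM at day 6, 188 and 72.1 CPM at day 9, then 259 and 113 CPM at day 11. In lin- cells it had 449.6 and 140.0 CPM at day 0, 151 CPM at day 6, 287 and 110.0 CPM at day 9, then 259.9 and 115 CPM at day 11. All 8 late sets lay below the day 0 set of their lineage and batch. The fitted log2 fold changes, −0.62 in lin+ and −0.51 in lin- cells, did not pass the test. The mean level of Ncl thus ran against the module score. Npm1 had 86.2 and 102 CPM in lin+ cells at day 0, 183.5 CPM at day 6, 79.2 and 178 CPM at day 9, then 67.0 and 198.5 CPM at day 11. Its lin- values were 107 and 271 CPM, 177 CPM, 106 and 142 CPM, and 67.9 and 303.5 CPM at the same times, and neither change passed (0.32 and −0.36).

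The box C/D snoRNPs guide 2′-O-methylation of rRNA. Fbl, the methyltransferase fibrillarin, had 6.1 and 12.6 CPM in lin+ cells at day 0, 21.6 CPM at day 6, 13.4 and 20.3 CPM at day 9, then 12.9 and 25.3 CPM at day 11. These late lin+ sets were all above day 0 of their batch, with a log2 fold change of 0.90 that did not pass. In lin- cells Fbl had 6.8 and 20.4 CPM at day 0, 24.8 CPM at day 6, 8.3 and 26.1 CPM at day 9, then 5.9 and 23.1 CPM at day 11. Nop58 had 91.3 and 78.7 CPM in lin+ cells at day 0, 188.0 CPM at day 6, 46.8 and 130.2 CPM at day 9, then 58.5 and 170.3 CPM at day 11, so that the batches moved apart. Its lin- values were 149.5 and 173 CPM at day 0, 163 CPM at day 6, 64.9 and 176 CPM at day 9, then 33.9 and 166 CPM at day 11. Nop56 had 128 and 243 CPM in lin+ cells at day 0, 105 CPM at day 6, 128 and 121.5 CPM at day 9, then 289 and 147 CPM at day 11. In lin- cells it had 122 and 173 CPM at day 0, 89.0 CPM at day 6, 205.5 and 219 CPM at day 9, then 139 and 2297.5 CPM at day 11. The last value came to 90.3% from a cell with 5 reads in all, and was 229 CPM over cells with at least 100000 reads. No box C/D gene passed the test.

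The box H/ACA snoRNPs guide pseudouridylation, and 4 of 4 of their genes had positive log2 fold changes in lin+ cells (median 0.77) and 1 of 4 in lin- cells (median −0.37), with 0 past the test. Dkc1, the pseudouridine synthase dyskerin, had 5.4 and 40.9 CPM in lin+ cells at day 0, 55.5 CPM at day 6, 6.8 and 81.8 CPM at day 9, then 67.9 and 89.0 CPM at day 11, above day 0 in every late set (1.45). In lin- cells Dkc1 had 28.2 and 96.3 CPM at day 0, 79.0 CPM at day 6, 13.8 and 77.2 CPM at day 9, then 9.1 and 95.9 CPM at day 11. Each later lin- set was below day 0 of its batch, but by little at day 11 of batch 2. Over cells with at least 100000 reads that set had 97.9 CPM, against 96.3 CPM at day 0. By logs averaged over cells, given below, Dkc1 was called higher in late wounds of both lineages. The core protein Nhp2 had 121 and 265 CPM in lin+ cells at day 0, 477 CPM at day 6, 435 and 427 CPM at day 9, then 441 and 313 CPM at day 11. Each later lin+ set was above day 0 of its batch (1.15 ± 0.43, p = 0.018, adjusted p = 0.396, limma). In lin- cells with at least 100000 reads Nhp2 had no shared direction in batch 1, with 396, 650 and 302 CPM at days 0, 9 and 11. In batch 2 these cells had 262, 352, 348 and 383 CPM at days 0, 6, 9 and 11. Of the proteins that help build snoRNPs, the ATPase Ruvbl2 had the largest fitted value among members in lin+ cells (4.23 ± 1.17, limma p = 0.0033, adjusted p = 0.270). It stood at 0.01 CPM in the batch 1 day 0 set, so that this value depends on what is added before the log (2.57 with 10 added) and ran from 0.83 to 7.64 over 17 alternatives. Its reads were in 10 of 93 lin+ cells at day 0 (10.8%), 19 of 93 at day 6 (20.4%) and 58 of 165 in late wounds (35.2%). They were in 10 of 95 lin- cells at day 0 (10.5%), 24 of 93 at day 6 (25.8%) and 67 of 145 in late wounds (46.2%). In batch 1 at day 0 it was read in 1 of 47 lin+ cells.

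The small subunit processome, built around the U3 snoRNP, makes the first cuts of the precursor on the 40S side. In lin+ cells 3 of its 6 genes were positive (median 0.01) and in lin- cells 5 of 6 (median 1.15). Rrp9, a U3 protein, had 161 and 49.4 CPM in lin+ cells at day 0 and 34.3 to 75.8 CPM later. It had 5.2 and 7.9 CPM in lin- cells at day 0, 29.2 CPM at day 6, 136 and 66.4 CPM at day 9, then 147 and 28.9 CPM at day 11. The log2 fold change of late lin- wounds over day 0 was 3.43 ± 0.66 and missed the threshold (limma adjusted p = 0.0756, range over alternatives 0.0172 to 0.609), as did that of lin+ over lin- cells at day 0 (3.61 ± 0.71, limma adjusted p = 0.0599). The cells with Rrp9 reads differed less, with 23 of 145 late lin- cells (15.9%) against 9 of 95 at day 0 (9.47%). Its U3 partners Imp3 (1.51 in lin+, 2.02 in lin-) and Imp4 (0.60 and 1.75) were positive in both lineages.

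Of the factors that finish the 40S subunit, Bysl (bystin) had 0.7 and 12.1 CPM in lin+ cells at day 0, 3.8 CPM at day 6, 12.4 and 12.8 CPM at day 9, then 54.7 and 27.2 CPM at day 11 (2.32, limma p = 0.036, adjusted p = 0.442). In lin- cells Bysl had 49.2 and 58.7 CPM at day 0, 17.4 CPM at day 6, 63.7 and 16.7 CPM at day 9, then 61.6 and 22.6 CPM at day 11, with no shared direction. Ltv1 and Nob1, an assembly factor and the nuclease that makes the end of 18S rRNA, had log2 fold changes of 0.14 and −0.47 in lin+ cells, beside 2.81 and 2.32 in lin- cells.

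The 15 tested genes of 60S assembly had 13 positive values in each lineage (medians 0.47 in lin+ and 0.74 in lin- cells). Bop1, which with Pes1 and Wdr12 forms the PeBoW complex of 28S maturation, had 92.3 and 14.0 CPM in lin+ cells at day 0, 2.5 CPM at day 6, 142 and 13.6 CPM at day 9, then 107 and 15.2 CPM at day 11. In lin- cells it had 50.8 and 0 CPM at day 0, 15.8 CPM at day 6, 88.4 and 67.8 CPM at day 9, then 55.8 and 19.6 CPM at day 11, with each late set above day 0 (2.85, limma p = 0.011, adjusted p = 0.245). Ddx21, a DEAD-box helicase of rRNA synthesis and processing, had 17.6 to 42.8 CPM by set, a range that pools the different scales of the batches. Within a batch it varied, by values over cells with at least 100000 reads. At days 0, 9 and 11 lin- cells had 18.9, 36.5 and 21.2 CPM in batch 1 and 37.8, 17.6 and 43.7 CPM in batch 2. Lin+ cells had 18.7, 25.5 and 29.2 CPM in batch 1 and 22.4, 22.3 and 33.1 CPM in batch 2. Rrs1, which loads the 5S particle, was read in 44 of 165 late lin+ cells (26.7%) and in 7 of 93 at day 0 (7.53%), and its log2 fold change of 3.90 ± 0.92 did not pass (limma p = 0.0010, adjusted p = 0.165). Rrs1 too was near 0 in 1 set (0.11 CPM at day 0 of batch 1), and its value was 2.17 with 10 added.

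Surf2, a gene of the Surfeit cluster (chr2:26916372-26920187) whose promoter E-box is printed above, was the 1 member that passed in any comparison. Surf2 stood in lin+ cells at 206 and 37.2 CPM at day 0, 87.5 CPM at day 6, 40.1 and 59.9 CPM at day 9, then 119.9 and 85.5 CPM at day 11. It had 0 CPM in both lin- sets at day 0, 170.2 CPM at day 6, 73.9 and 35.9 CPM at day 9, then 124 and 80.5 CPM at day 11. The lin- day 0 sets thus stood apart from all other sets, and the lin+ sets showed no shared direction. Of the lin+ day 0 value in batch 1, 82.1% came from 1 cell. Surf2 was read in 9 of 93 lin+ cells at day 0 (9.68%), 14 of 93 at day 6 (15.1%) and 43 of 165 in late wounds (26.1%). It was read in 0 of 95 lin- cells at day 0, which allows up to 3.16% by counting error over cells alone, in 17 of 93 at day 6 (18.3%) and in 34 of 145 in late wounds (23.4%). The number of genes detected per lin- cell was also lowest in the day 0 sets (medians 1795 and 1900.5), and its part in these shares was not tested. The limma adjusted p was 0.0079 for late wounds and 0.0131 for day 6 against day 0 in lin- cells, and 0.0046 for lin+ against lin- cells at day 0. The fitted log2 values (6.19, 7.75 and 6.47) depend on the value added before the log and are no measure of size. The late wound call held in 9 of 17 alternatives and was lost with 10 added (3.05, adjusted p = 0.053), in IFE-B cells alone (adjusted p = 0.199), and without each of the late mouse sets (adjusted p = 0.0709 to 0.196). The difference between the lineages in that change was not past the threshold (adjusted p = 0.152).

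In the other comparisons of days no further member passed. Day 6 against day 0 gave 0 members in lin+ cells (0% of genes passed) and Surf2 alone in lin- cells (0.0377% of genes). In lin+ cells 2 members had a p under 0.05, beside 459 of 10619 genes. Late wounds against day 6 gave 0 and 0 (0.00942% and 0.0377% of genes), with 0 and 2 members at a p under 0.05, beside 248 and 424 genes. Day 11 against day 9 gave 0 and 0 (0% and 0%), with 0 and 0 members at a p under 0.05, beside 180 and 268 genes. The counts of 0 members past the limma test were also 0 with edgeR. Lin+ against lin- wound cells gave 0 members (0.264% of genes), with only Myc among members at a p under 0.05, beside 760 of 10619 genes. Of 43 members 11 were positive there, with a median of −0.19, beside −0.01 over all genes and 49.1% of all genes positive. The count ran from 8 with plain CPM to 16 over the alternatives. By role, 0 of 6 genes of the small subunit processome, 0 of 5 of 40S maturation, 4 of 15 of 60S assembly, 2 of 3 of box C/D and 2 of 4 of box H/ACA were positive. At day 0 the lineages differed in Surf2 alone (0.461% of genes passed), with 9 members at a p under 0.05, beside 1615 of 10619 genes. The difference between the lineages in late wounds against day 0 gave 0 members (0.00942% of genes), and edgeR called 1, Surf2. In that limma test 8 members had a p under 0.05, beside 1054 of 10619 genes.

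The result for days depended on how cells were averaged. Where log2(CPM + 1) was averaged over cells, so that a gene's value follows the share of cells that have it, 18 of 43 members (41.9%) rose in late lin+ wounds, where 14% of all genes rose, and 20 (46.5%) rose in late lin- wounds, where 16.5% of genes did. All 43 were positive in lin+ and 42 in lin- cells, beside 86.2% and 83.3% of all genes. Medians were 1.17 and 1.13 for the members and 0.39 and 0.39 for all genes. The number of genes detected per cell moved the same way. Both lineages shared 11 of these calls, 61.1% of the lin+ and 55.0% of the lin- calls, beside 883 shared calls over all genes (59.3% and 50.5%). The 11 were Dkc1, Ebna1bp2, Imp3, Nhp2, Nop10, Nop16, Nop56, Pa2g4, Ruvbl2, Surf2 and Wdr74. Myc rose in lin+ cells by this measure (2.86, adjusted p = 0.0092, limma) and had 0.71 (adjusted p = 0.507) in lin- cells, and Fbl, Gar1, Nop58, Npm1, Pwp1 and Rrs1 were the other 6 that passed in lin+ and did not pass in lin- cells. The difference between the lineages in this change, by the same measure, passed the limma test for 0 of 10619 genes, so that no member was shown to differ. Ncl, Polr1a, Polr1b and 14 other members were called in neither lineage.

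Related genes outside the list gave 0 calls in late wounds against day 0 in either lineage. Of 89 tested genes of a further list of ribosome biogenesis, 52 were positive in lin+ and 47 in lin- cells (medians 0.25 and 0.13), nearer to all genes than the members were. Of 20 other Myc target genes 17 and 14 were positive (0.48 and 0.37), of 11 genes of the RNA exosome, which trims rRNA precursors, 10 and 8 (0.85 and 0.95), and of 18 proliferation genes 15 and 14 (0.74 and 0.80). Of 17 genes of the Myc family and its partners 6 and 10 were positive (−0.36 and 0.24). The study sets 6 genes beside Myc. It reports Hspb1, Atf3, Id3 and Gata3 as raised with Myc in the dedifferentiated cluster of its lin+ cells. Lrig1 and Mki67 are related there to Myc in single cells, and Lrig1 also by day and by staining of skin sections. None of the 6 passed here in set means of late wounds against day 0, which does not test those relations. Lrig1, a marker of upper follicle stem cells that dampens growth factor receptors, had 0.30 in lin+ and 1.44 in lin- cells, Mki67, a proliferation marker, −0.02 and −0.59, the heat shock gene Hspb1 −0.93 and −0.35, the stress factor Atf3 −0.37 and −1.43, Id3 1.24 and 0.40, and Gata3 1.25 and −0.66.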

How the data were processed

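Single-cell Smart-seq2 libraries were used. Per the labels and methods, the authors trimmed reads with Trimmomatic (0.27), aligned them with STAR (2.2) to GRCm38 (mm10), counted genes with featureCounts and annotated cells in Seurat (3.2.2 in the labels, a later version in the methods). The deposited values are read counts in batch 1 (222 cells) and RPKM in batch 2 (462 cells), which was found from the values. Second-batch reads were recovered for edgeR and thinning, and 99.97% of values below 200 reads lay within 0.02 of a whole number. Deposited per-sample columns not used here numbered 826. 1 cell, whose label number differs from its batch, was placed by the deposited batch.

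Each value, counts in batch 1 and RPKM in batch 2, was divided by its cell's total (share, CPM). Between the sets of a batch, means were scaled by median of ratios, and 10619 genes at 10 CPM or more in at least 2 sets were tested with limma (3.58.1) on log2(mean CPM + 1), with trend. Days were compared with a batch term (degrees of freedom 5 residual, 7.65 prior) and lineages with the mouse set as block, since both lineages came from the same skin. Deviations of paired sets correlated at −0.188 to 0.0036, with 1 distinct value per day. With 2 sets in a group these deviations mirror each other, so they cannot show whether paired sets are independent. The scripts were tested on simulated data. Intervals are exact binomial. Versions were R 4.3.3, edgeR 4.0.16, Python 3.11.15 and scipy 1.17.1.

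Members and lists were chosen with earlier results of these data known. Values by set are given for Myc, 10 members listed in the design whatever they showed, and members that passed. Other members were named after their values were seen. The E-box search, the window of 2000 to 3500 genes, the limit of 100000 reads, the score without Polr1b and Dkc1 and the partial rho were added after seeing the data.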

Additional observations from a re-analysis of the deposited data

How the results depend on the processing

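Of 461 values recomputed under an alternative, 390 were labelled the same, 36 moved, 10 gained and 18 lost the threshold, and 7 reversed. For counts of members called, the same means an equal or close count, which includes counts of 0 that stayed 0. For single genes it means the same direction and side of the threshold. For the score and its rho with Myc it means the same direction and a change within the spread. The count of members called changed most when log2(CPM + 1) was averaged over cells: 18 in late lin+ wounds against day 0 (1497 genes, against 10), 20 in late lin- wounds (1790, against 20), and 0 for day 6 in lin- cells and for lineages at day 0. With no filter on low values or 10 added before the log, late lin- wounds gave 0 members (5 and 12 genes), and with 10 added lineages at day 0 gave 0 (5 genes). In IFE-B cells alone day 6 in lin- cells and lineages at day 0 gave 0, and late lin- wounds gave Ltv1 in place of Surf2. edgeR called 1 member, Surf2, in the difference between lineages, and fewer genes than limma in late wounds (1 and 4) and between lineages (5 in wounds, 11 at day 0). With no replicate block, late wounds and day 6 in lin- cells gave 0 members, lineages at day 0 gave 2 (57 genes) and the difference between lineages 1. Leaving out 1 mouse set gave 0 to 5 members in late lin+ wounds (up to 328 genes), 0 to 1 for day 6 in lin+ cells, 0 to 3 in late lin- wounds, 0 to 1 for day 6 in lin- cells, 1 to 6 for lineages at day 0 (up to 494 genes) and 0 to 3 for the difference between lineages. The highest counts came without the batch 2 day 0 set, which leaves 1 day 0 set in each lineage. In each of these comparisons the count over all genes was highest there too. Calls thus rose over all genes and not among the members alone. The causes were not tested.

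Leaving out 1 mouse set, the log2 fold change of Myc ran from −1.11 (without day 0 of batch 1) to 3.34 (without day 0 of batch 2) in late lin+ wounds, from −1.83 to 0.17 (the same) in late lin- wounds, and from −2.14 (without day 0 of batch 2) to 0.31 (without day 0 of batch 1) between lineages at day 0. Averaged logs gave 0.71 in late lin- wounds and 0.23 between lineages at day 0. For the module score, IFE-B cells alone gave 0.200 and 0.219 (late wounds minus day 0, lin+ and lin-), 0.199 and 0.212 (late wounds minus day 6) and 0.0027 (lineages at day 0). Cells with 2000 to 3500 genes gave 0.095 and 0.109 (late wounds minus day 0), 0.086 (day 6 minus day 0, lin+) and −0.037 and 0.034 (late wounds minus day 6, lin+ and lin-), and thinned reads 0.083 (day 6 minus day 0, lin-). Plain CPM moved the median of all genes in late wounds to 0.26 in lin+ and 0.28 in lin- cells, beside 0.51 and 0.75 for the members. Day 6 has 1 set per lineage, and most members are read in under 25% of cells, which limits every comparison of single genes.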
